A study of Mus musculus with 99 samples.

Results

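The fibroblast growth factor (FGF) genes described here are 10 rows of a table of 55291 gene symbols, taken by name: the secreted ligands Fgf8, Fgf10 and Fgf20, the intracellular homologues Fgf12, Fgf13 and Fgf14, the receptors Fgfr1, Fgfr2 and Fgfr3, and the feedback inhibitor Spry2. They were measured in 99 single hair cells picked singly from the cochlea of C57BL/6 mice. The first group is 32 wild-type outer hair cells (OHCs) of postnatal day 30 with the genotype Slc26a5-CreER/+; Ai9/+. The second is 67 cells of postnatal day 42 with the genotype Slc26a5-CreER/+; Rosa26Tbx2/+, in which the transcription factor Tbx2 is expressed ectopically in OHCs; the labels call them converted inner hair cells (cIHCs). Both groups carry the same inducible Cre, driven from Slc26a5, the prestin gene of OHCs. How and when the Cre was induced is not given in the sources used here. Age and genotype differed together, so their parts in a difference cannot be told apart. Sex-linked reads, given below, also differed between the groups. No endogenous inner hair cell (IHC) was among the cells analysed.

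FGF ligands are secreted proteins that bind receptor tyrosine kinases on neighbouring cells and switch on the RAS and MAP kinase cascade, which induces ETS factors such as Etv4 and Etv5 and inhibitors such as the Sprouty proteins and Dusp6. In the cochlea, Fgf8 is the ligand made by IHCs, and its signal through Fgfr3 on the neighbouring supporting cells is needed for pillar cells to form; Spry2 limits that response. Fgf10 and Fgf20 act earlier, in the prosensory epithelium. Fgf12, Fgf13 and Fgf14 are not secreted: they bind voltage-gated sodium channels inside the cell.

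Which mouse a cell came from is not labelled, so a group counts as 1 sample: no test was possible, and every difference given here lacks a replicate check. Levels are counts per 1000000 counts of the cell or group (CPM), either per cell or pooled, that is, summed over the cells of a group. Total counts ran from 5656512 to 9287413 per OHC and from 4677682 to 13792672 per cIHC, and medians of 6068.5 and 8546 genes had reads. All intervals are 95%. Those of levels and ratios cover the counting error of reads only, and those of shares the draw of cells only. Reads were amplified and carry no molecular identifiers, so several can stem from 1 molecule and the read intervals are too narrow. The OHC markers (8 genes) summed to 26330 to 73457 CPM per OHC and 248.3 to 5173 CPM per cIHC, and the IHC markers (8 genes) to 0.142 to 3157 CPM and 3040 to 17867 CPM. Tbx2, the ectopic gene, had 3 counts in all OHCs and 112.7 to 2643 CPM in the cIHCs. Markers of other cells were present in part of the cells: the pooled sum of 10 supporting cell genes was 50.98 CPM in OHCs and 44.5 CPM in cIHCs, that of 5 fibroblast genes 54.4 and 21.7 CPM, and that of 5 glia genes 14.3 and 8.19 CPM. Blood and macrophage genes (8) summed to 3.28 and 52.8 CPM, and neuron genes (8) to 74.0 and 330.0 CPM. Prph, Thy1 and Gap43 of the neuron list were at 0 in both groups. Nefl had 53.9 and 123.6 pooled CPM, and Nefm 19.2 and 176.1 CPM. By reads of Xist or of 4 Y-linked genes at 10 CPM or more, 4 OHCs and 55 cIHCs had Xist reads and 24 OHCs and 12 cIHCs had Y-linked reads. By these reads sex was not balanced between the groups, and its part in a difference was not tested.

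Of the 10 genes, 6 had reads and 4 had none in any of the 99 cells. A gene was compared when its pooled level reached 1 CPM in 1 or both groups, and 16005 genes met this, all 6 members with reads among them. A difference of at least 2-fold, a log2 ratio (cIHC over OHC) of 1 or more in either direction, is called higher or lower here. For these calls and for medians over genes a sum under 3 counts was set to 3; a ratio printed for a gene uses its own counts, and only a sum of 0 was set to 3, which makes the ratio a bound. Fgf8, Fgfr1 and Fgfr2 were higher in cIHCs, against 34% of all compared genes, and Fgfr3 and Spry2 were lower, against 19.7% of all. Fgf12 lay between. With the same fold also asked for after leaving out the highest cell of each group, Fgf8, Fgfr1, Fgfr3 and Spry2 kept their calls, Fgfr2 did not, and the shares over all genes were 33.1% higher and 12.5% lower. The 1 CPM minimum was still taken over all cells there. The Fgfr2 call rested on 1 cell.

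**Figure D1:**
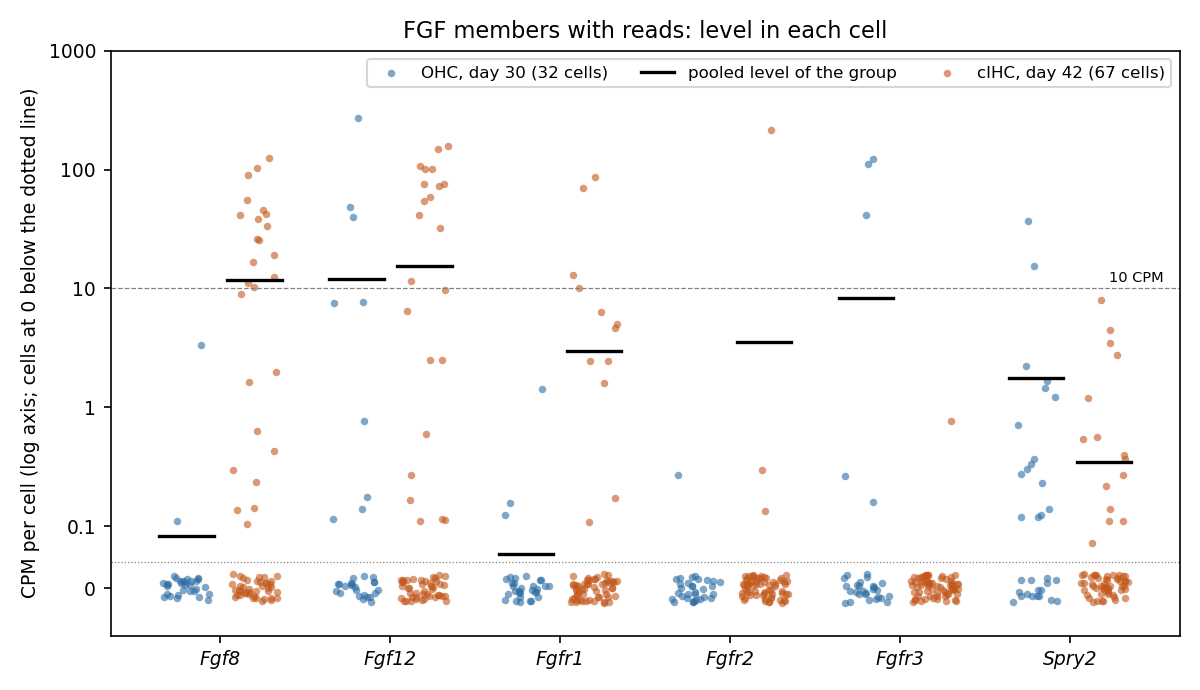
CPM per cell (log axis) of the 6 FGF members with reads in 32 OHCs and 67 cIHCs; each point is 1 cell, cells at 0 lie below the dotted line, and black bars are pooled levels, drawn where they exceed 0.05 CPM. Fgf8 points above 10 CPM are all cIHCs and Fgfr3 points above 10 CPM are all OHCs, while most cells of both groups lie at 0 for every gene except Spry2 in OHCs.

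Fgf8, the IHC ligand (chr19:45736798-45742915, minus strand, GRCm38, as annotated in GENCODE M21), had no read in 30 of 32 OHCs; the other 2 held 19 counts (3.36 CPM) and 1 count (0.11 CPM), and the OHC median was 0. In cIHCs the lowest and the median value were 0 CPM and the highest 124.4 CPM. Reads were present in 26 of 67 cIHCs, or 38.8% (exact Clopper-Pearson interval 27.1 to 51.5), against 2 of 32 OHCs, or 6.25% (0.766 to 20.8). The groups overlapped, since most cells of both had no Fgf8 read, but no OHC reached 10 CPM and 16 cIHCs, 23.9%, did. Neuron markers summed to 100 CPM or more in all 16 of these cells and in 62 of all 67 cIHCs. Blood and macrophage markers did so in 8 of the 16 and 17 of the 67. Of that list C1qa, C1qc, Tyrobp and Lyz2 were at 0 in every cIHC. C1qb had reads in 35 of the 67 (pooled 48.2 CPM, highest 336.9 CPM) and none in OHCs. Cd74, Hba-a1 and Hbb-bs had reads in cIHCs as well. Leaving out cells with any of the 5 foreign marker lists at 100 CPM or more kept 17 OHCs and 3 cIHCs, with 19 and 14 Fgf8 counts and a log2 ratio of 1.99; there Fgf8 no longer reached 1 CPM and had no call. With the neuron list aside, 24 OHCs and 42 cIHCs gave a ratio of 5.91, from 20 and 2238 counts. The part of foreign reads in the Fgf8 level was not tested.

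Levels varied widely among the cIHCs with Fgf8 reads. At the top, 4 cells held 124.4, 103.2, 90.2 and 55.6 CPM; 12 more lay between 10.3 and 46.1 CPM, and 6 of the 26 held 1 to 3 counts only. The highest cell held 24.1% of the group's Fgf8 counts. The pooled level was 0.083 CPM in OHCs (exact Poisson interval 0.050 to 0.128) and 11.8 CPM in cIHCs (11.6 to 12.1), a log2 ratio of 7.16 (exact conditional binomial interval 6.54 to 7.88). Nearly all of the OHC sum came from 1 cell: without the highest cell of each group 1 OHC count was left and the ratio was 11.09 (8.61 to 16.39).

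Whether a share of 38.8% is low for this level was read from other genes. Among 1794 genes with 8 to 16 pooled CPM in cIHCs, the median share of cells with reads was 35.8% (quartiles 28.4 and 44.8). Fgf8 thus had reads in about as many cIHCs as genes of like level usually did, and cells without an Fgf8 read are not shown to lack it. After each cell was thinned to 5880000 reads, which left out 3 OHCs and 2 cIHCs, the share was 35.4% in cIHCs and 0 of 29 in OHCs.

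Between cIHCs with Xist reads and those with Y-linked reads, the pooled Fgf8 level differed more than the share of cells. Among cIHCs with Xist reads, 22 of 55 (40%) had Fgf8 reads and the pooled level was 13.3 CPM. Among those with Y-linked reads, 4 of 12 (33.3%) had them, at 3.47 CPM. This level came from 280 counts, with 2 cells at 10 CPM or more, so few cells set it. Set against the 24 OHCs with Y-linked reads, at 0.110 CPM, the 12 cIHCs gave a log2 ratio of 4.98. Across cIHCs the Fgf8 level had a Spearman rho of 0.03 with Tbx2, -0.23 with Slc17a8, the glutamate transporter gene of IHCs, and 0.13 with total counts. These values describe 67 cells of 1 group that share their preparation, and all are weak.

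Fgf10 and Fgf20, the other secreted members, had no count in either group. Zero counts allow up to 0.0124 pooled CPM in OHCs and 0.0055 CPM in cIHCs, and 0 cells with reads, taken as fewer than 3 cells, allow reads in up to 9.38% of OHCs and 4.48% of cIHCs, which limits cells with reads and not cells that express the gene. Such zeros are common in this table: 5679 of 21533 protein-coding symbols, 26.4%, had no read in any cell. Of 18 secreted FGF ligands listed, 9 had no read at all.

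Of the remaining ligands, only Fgf1 and Fgf9 reached 1 pooled CPM. Fgf1, a ligand that binds all FGF receptors, had reads in 10 of 32 OHCs (median 0, highest 101.0 CPM) and 18 of 67 cIHCs (median 0, highest 71.9 CPM). The cells of the groups overlapped throughout, and the pooled levels of 9.04 and 5.86 CPM gave a log2 ratio of -0.63. Fgf9 was seen in 2 OHCs only, at 180.1 and 171.5 CPM, and in none of the 67 cIHCs. Its log2 ratio was thus at most -11.19, but it rests on 2 cells.

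Fgf12 (chr16:28160098-28753068, minus strand) was the only intracellular homologue that reached 1 pooled CPM. It was found in 9 of 32 OHCs, with a median of 0 and a highest value of 272.8 CPM, and in 23 of 67 cIHCs, with a median of 0 and a highest value of 156.7 CPM. At 10 CPM or more it was found in 3 OHCs, 9.38%, and in 13 cIHCs, 19.4%. A single OHC, number 6, held 69.0% of the OHC counts; its glia markers summed to 174.1 CPM, the highest of any OHC, and their part in its Fgf12 reads was not tested. The pooled levels were 12.1 and 15.4 CPM, a log2 ratio of 0.35 (0.29 to 0.42), which became 1.78 (1.68 to 1.88) without the highest cells. Among cells with Y-linked reads the levels were 2.50 and 24.1 CPM, a ratio of 3.27; among cells with Xist reads the 4 OHCs had none.

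Fgf13 and Fgf14, which like Fgf12 bind sodium channels, had no count in any cell, and Fgf11 had 21 counts in 1 cIHC. The channel partners themselves were partly present: of 13 sodium channel genes listed, 10 had reads and 5 reached 1 pooled CPM. Of these 5, 2 were higher in cIHCs, against 34% of all compared genes. Another 2, Scn8a and Scn11a, were lower, against 19.7% of all. Scn8a, a pore-forming subunit, had reads in 20 OHCs and 45 cIHCs with medians of 3.20 and 3.85 CPM. Its pooled levels of 53.4 and 25.5 CPM gave a ratio of -1.07, and the highest cells, at 294.8 and 198.3 CPM, show how far the groups overlapped.

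Fgfr1 (chr8:25513654-25575718, plus strand), a receptor that sensory cell progenitors of the cochlea need, had no read in 29 of 32 OHCs and at most 1.42 CPM in the rest. In cIHCs 12 of 67 cells had reads, 17.9% (9.61 to 29.2), with a median of 0 and a highest value of 86.5 CPM; 4 cells reached 10 CPM. The groups overlapped at 0. The pooled level went from 0.058 to 3.01 CPM, a log2 ratio of 5.70 (4.95 to 6.57). cIHCs 62 and 14, at 86.5 and 70.6 CPM, held most of it, and all 12 cells with reads were cIHCs with Xist reads: the 12 cIHCs with Y-linked reads had none. Of the 4 cells at 10 CPM or more, cIHCs 62 and 49 had supporting cell markers at 181.5 and 1017 CPM, and the neuron markers of all 4 lay between 239.2 and 550.0 CPM. Leaving out cells with foreign markers left 0 Fgfr1 counts in 3 cIHCs, and with the neuron list aside 610 counts in 42 cIHCs, a ratio of 4.55. The part of these markers in the Fgfr1 level was not tested.

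Fgfr2 had 2 counts in 1 OHC and 1939 counts in cIHCs, of which 1936 came from cIHC 49 (215.1 CPM). The other 66 cIHCs held 3 counts, and the log2 ratio of 8.75 (6.90 to 11.80) describes that cell. The supporting cell markers of cIHC 49 summed to 1017 CPM, the highest of any cIHC and including 387.9 CPM of Gjb6 and 293.9 CPM of Gjb2, which encode gap junction proteins of supporting cells. Its fibroblast markers summed to 593.9 CPM, and 10859 genes had reads in it. The part of such foreign reads in the Fgfr2 value was not tested. Fgfr2 shares exon sequence with Ctbp2 on the same strand in GENCODE M21, so its counts are uncertain as well.

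Fgfr3 (chr5:33721674-33737068, plus strand), the receptor that receives Fgf8 in the organ of Corti, went the other way. Of 32 OHCs 27 had no read, 2 had 1 or 2 counts, and 3 held 124.0, 110.9 and 41.4 CPM. In cIHCs 66 of 67 cells had no read and 1 had 7 counts (0.77 CPM). The cells of the groups overlapped at 0, yet every cell above 10 CPM was an OHC. The pooled levels were 8.30 CPM (7.94 to 8.67) and 0.013 CPM (0.0052 to 0.027), a log2 ratio of -9.33 (-10.65 to -8.29), and at most -9.59 without the highest cells.

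Reads of Fgfr3 in 15.6% of OHCs compare with a median of 18.8% over 1770 genes of 6 to 12 pooled CPM in OHCs. Fgfr3 is also a gene of supporting cells, so the markers of all 5 OHCs with reads are given. In the 3 OHCs above 10 CPM supporting cell markers summed to 0.248, 0.156 and 0 CPM, and Slc26a5 lay at 2095, 2519 and 1653 CPM. The OHCs with 2 counts and 1 count, numbers 30 and 22, had supporting cell markers at 220.3 and 1658 CPM. Among the 3 high cells, number 31 had neuron markers at 194.5 CPM and glia markers at 77.3 CPM. In number 31, the highest for Fgfr3, 8567 genes had reads, the most of any OHC, against 6149 and 5953 in numbers 10 and 24. The part of foreign reads in its Fgfr3 value was not tested. Within cells with Y-linked reads the levels were 9.39 CPM in OHCs and 0 in cIHCs; within cells with Xist reads they were 0.035 and 0.015 CPM, from 1 and 7 counts.

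Spry2 (chr14:105891947-105896819, minus strand), the feedback inhibitor, was present in more OHCs than any other member but at low counts. It had reads in 16 of 32 OHCs, 50% (31.9 to 68.1), with a median of 0.059 CPM and a highest value of 37.0 CPM, and in 15 of 67 cIHCs, 22.4% (13.1 to 34.2), with a median of 0 and a highest value of 8.04 CPM. In 9 of the 16 OHCs and 8 of the 15 cIHCs this meant 1 to 3 counts. The groups overlapped, and only 2 OHCs reached 10 CPM. An OHC had the higher level in 44.7% of all pairs of 1 OHC and 1 cIHC, a cIHC in 16.5%, and the rest tied at 0. The pooled levels were 1.78 and 0.344 CPM, a log2 ratio of -2.37 (-2.63 to -2.12), or -1.71 without the highest cells. OHC 5 held 61.02% of the OHC counts; the second highest, OHC 22, carried supporting cell markers at 1658 CPM and fibroblast markers at 1315 CPM, whose part in its 15.5 CPM of Spry2 was not tested.

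Fgfr3 and Spry2 are the members that were lower in the cells with ectopic Tbx2, so their promoter sequences are printed here. The sequences come from RefSeq for GRCm38.p6, 5′ to 3′ on the strand of the gene, limited to bases before the start of the gene in GENCODE M21, and capitals mark GC boxes (GGGCGG on either strand, which reads CCGCCC on the other).
Fgfr3 (chr5:33721474-33721673, plus strand): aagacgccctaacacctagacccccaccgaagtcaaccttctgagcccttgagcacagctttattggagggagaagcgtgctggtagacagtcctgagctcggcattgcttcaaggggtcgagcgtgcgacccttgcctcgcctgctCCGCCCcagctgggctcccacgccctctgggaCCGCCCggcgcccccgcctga
Spry2 (chr14:105896820-105897069, minus strand): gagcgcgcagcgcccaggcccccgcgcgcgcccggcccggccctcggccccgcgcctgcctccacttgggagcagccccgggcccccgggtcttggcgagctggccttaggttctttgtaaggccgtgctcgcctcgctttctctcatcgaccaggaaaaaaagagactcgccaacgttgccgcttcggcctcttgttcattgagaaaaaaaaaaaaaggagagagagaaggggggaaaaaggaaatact
The Fgfr3 stretch holds 2 GC boxes and the Spry2 stretch 0. A T-box half-site, GGTGTGA on either strand, the kind of element that T-box factors bind, is in neither. Of 10 members 7 had promoters in the RefSeq table, with 14 start sites in all; Fgf8, Fgf20 and Fgfr1 had no entry there. Over the 250 bases before each start, 0 of these 14 windows hold the T-box letters and 9 hold a GC box, against 3.33% and 32.7% of 32851 windows of the same length. These are matches of letters and say nothing about binding.

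Levels of the members were ranked per kilobase of exon, with exon lengths from GENCODE M21. In cIHCs Fgf8 was highest at 8.77 pooled CPM per kilobase, followed by Fgf12 at 2.49, Fgfr2 at 0.345, Fgfr1 at 0.304, Spry2 at 0.165 and Fgfr3 at 0.0018. The place of Fgfr2 rests on cIHC 49, which held 99.8% of its cIHC counts. In OHCs the order was Fgf12 at 1.95, Fgfr3 at 1.16, Spry2 at 0.853, Fgf8 at 0.061, Fgfr1 at 0.0059 and Fgfr2 at 0.0008 CPM per kilobase. OHC 6 held 69.0% of the OHC counts of Fgf12. Both orders are of pooled levels. The cells of neighbours overlapped at 0 in both groups, since the values of each of the 6 began there. Few cells had any member at 10 CPM or more: 25 of 32 OHCs and 39 of 67 cIHCs had none, 6 OHCs and 22 cIHCs had 1, and 1 OHC and 6 cIHCs had 2. Whether members met in 1 cell less or more often than their single shares would give was not tested. In 4 cIHCs Fgf8 and Fgf12 were both at 10 CPM or more, of 16 and 13 cells with either, with a Spearman rho of 0.05.

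**Figure D2:**
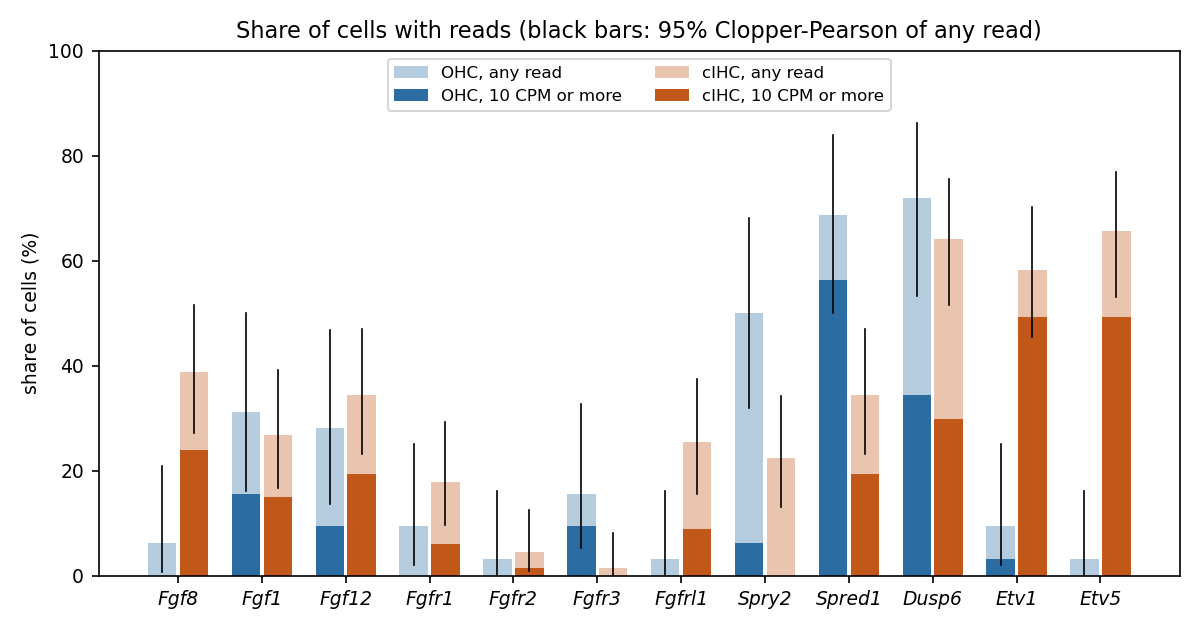
Share of cells (%) with reads of 6 members and 6 other FGF genes in OHCs (blue) and cIHCs (orange); pale bars are any read, with 95% Clopper-Pearson intervals, and dark bars 10 CPM or more. Etv5 had reads in 3.13% of OHCs and 65.7% of cIHCs, and Fgf12 in 28.1% and 34.3%. The intervals describe the draw of cells within a group and cover no difference between animals.

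The rest of the pathway was followed through 5 lists with 65 genes, the members included, of which 64 were in the table and 40 reached 1 pooled CPM. Of the 40, 15 were higher in cIHCs, 8 were lower and 17 lay between, with a median log2 ratio of 0.46, against 0.31 over all compared genes. Shares over all genes were, again, 34% higher and 19.7% lower. Leaving out the highest cell of each group kept 14 and 6 of these calls.

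The ETS factors and inhibitors that FGF signals induce did not move as 1 group: 3 were higher, 4 lower and 1 between, of 8 that reached 1 pooled CPM. Over all compared genes 34% were higher and 19.7% lower. Etv5, an ETS factor induced by FGF, had 1 count in 32 OHCs. In cIHCs it had reads in 44 of 67 cells, 65.7% (53.1 to 76.9), with a lowest value of 0, a median of 8.47 and a highest of 417.3 CPM. The log2 ratio was 13.31 (10.83 to 18.62) on pooled levels of 0.0041 and 42.0 CPM. It was present with both kinds of sex-linked reads, in 33 of 55 cIHCs with Xist reads (35.9 CPM) and 11 of 12 with Y-linked reads (77.1 CPM). Across cIHCs its rho with Fgf8 was 0.15 and with Tbx2 0.27, both weak; of 16 cIHCs with Fgf8 and 33 with Etv5 at 10 CPM or more, 10 were the same cells.

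Etv1, another ETS factor, had reads in 3 of 32 OHCs and 39 of 67 cIHCs, with medians of 0 and 6.83 CPM. Its pooled levels were 7.61 and 44.9 CPM, a ratio of 2.56, but 99.9% of its OHC counts lay in 1 cell and the ratio was 12.24 without the highest cells. Etv4 had no read. Spred2, a Sprouty-related inhibitor of the RAS cascade chosen here after its values were seen, went from 0.165 to 7.38 CPM, with reads in 2 OHCs and 28 cIHCs.

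Spry1, a Sprouty inhibitor like Spry2 and also chosen after its values were seen, lay between: it had reads in 2 of 32 OHCs and 26 of 67 cIHCs and pooled levels of 7.16 and 13.8 CPM, a ratio of 0.95. As 1 OHC held 96.3% of its OHC counts, the ratio was 5.48 without the highest cells.

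Spred1, Spred3 and Dusp6 were lower with all cells. Spred1, which holds back RAS activation, had reads in 22 of 32 OHCs (median 45.03, highest 511.5 CPM) and 23 of 67 cIHCs (median 0, highest 104.4 CPM). Its pooled levels of 91.2 and 10.1 CPM gave a log2 ratio of -3.18 (-3.22 to -3.14), which no single cell carried: it was -3.24 without the highest cells. Spred3 went from 15.5 to 2.90 CPM, a ratio of -2.42, with 56.5% of the OHC counts in 1 cell, and shares exon sequence with Ggn on the other strand. Dusp6, the phosphatase that switches off ERK, had pooled levels of 76.2 and 35.4 CPM, a ratio of -1.10 that was -0.94, short of 2-fold, without the highest cells, with reads in 71.9% of OHCs and 64.2% of cIHCs.

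**Figure D3:**
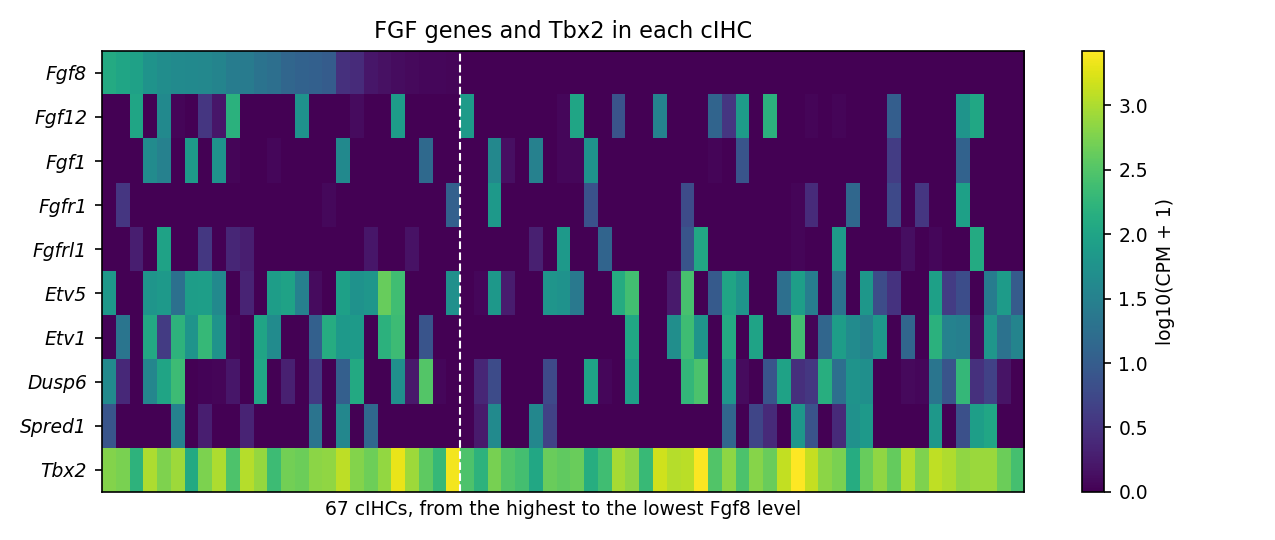
Level, log10(CPM + 1), of 9 FGF genes and Tbx2 in the 67 cIHCs, 1 column per cell, ordered from the highest to the lowest Fgf8 level; the dashed line ends the 26 cells with Fgf8 reads. Etv5 and Etv1 are present on both sides of that line, and Tbx2 is present in every cell.

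Among receptors and their partners, 9 of 12 listed genes reached 1 pooled CPM: 7 were higher in cIHCs and 2, Fgfr3 and Fgfr4, lower. Over all compared genes the shares were 34% higher and 19.7% lower. Calls kept without the highest cells were 6 higher and 1 lower, against 33.1% and 12.5% of all. Of the 7, Fgfr2 rested on 1 cell and Flrt2 had reads in 2 cIHCs only. Fgfr4 turned to a ratio of 0.81 without the highest cells, since 1 OHC held 99.3% of its OHC counts. Flrt1, a membrane protein that associates with FGF receptors, had reads in 6 of 32 OHCs and 58 of 67 cIHCs, medians of 0 and 20.9 CPM, and pooled levels of 6.65 and 43.04 CPM, a ratio of 2.69. Flrt3, of the same family, went from 1.63 to 17.4 CPM, with reads in 2 OHCs and 29 cIHCs, a ratio of 3.41. Fgfbp3, a carrier of secreted FGFs, went from 7.75 to 24.3 CPM with reads in 25% of OHCs and 55.2% of cIHCs, a ratio of 1.65. Fgfrl1, a receptor without a kinase domain, chosen after its values were seen, had 1 count in OHCs; in cIHCs it had reads in 17 of 67 cells and a pooled level of 7.05 CPM over all 67.

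Signal transducers downstream of the receptors were found in both groups: all 19 listed genes reached 10 pooled CPM, and 14 differed by less than 2-fold, with a median ratio of 0.39. The 4 higher were Plcg1, Shc1, Sos2 and Araf, and the 1 lower was Grb2. Of all genes that reached 10 pooled CPM, 26.3% were higher and 14.3% lower. Plcg1, phospholipase C gamma, had reads in 3 of 32 OHCs and 36 of 67 cIHCs and pooled levels of 1.38 and 20.7 CPM, a ratio of 3.91; its exons overlap Zhx3 on the other strand. The adaptor Shc1 went from 19.03 to 67.5 CPM, with cell medians of 0.795 and 51.9 CPM. Sos2, which loads RAS with GTP, went from 17.95 to 42.1 CPM, and the kinase Araf from 143.2 to 312.1 CPM, with reads in 28 OHCs and all 67 cIHCs; Araf overlaps Syn1 on the other strand. Grb2, the adaptor that links receptors to Sos proteins, went from 42.9 to 20.1 CPM, a ratio of -1.10, although its cell medians were 11.5 and 13.9 CPM.

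**Figure D4:**
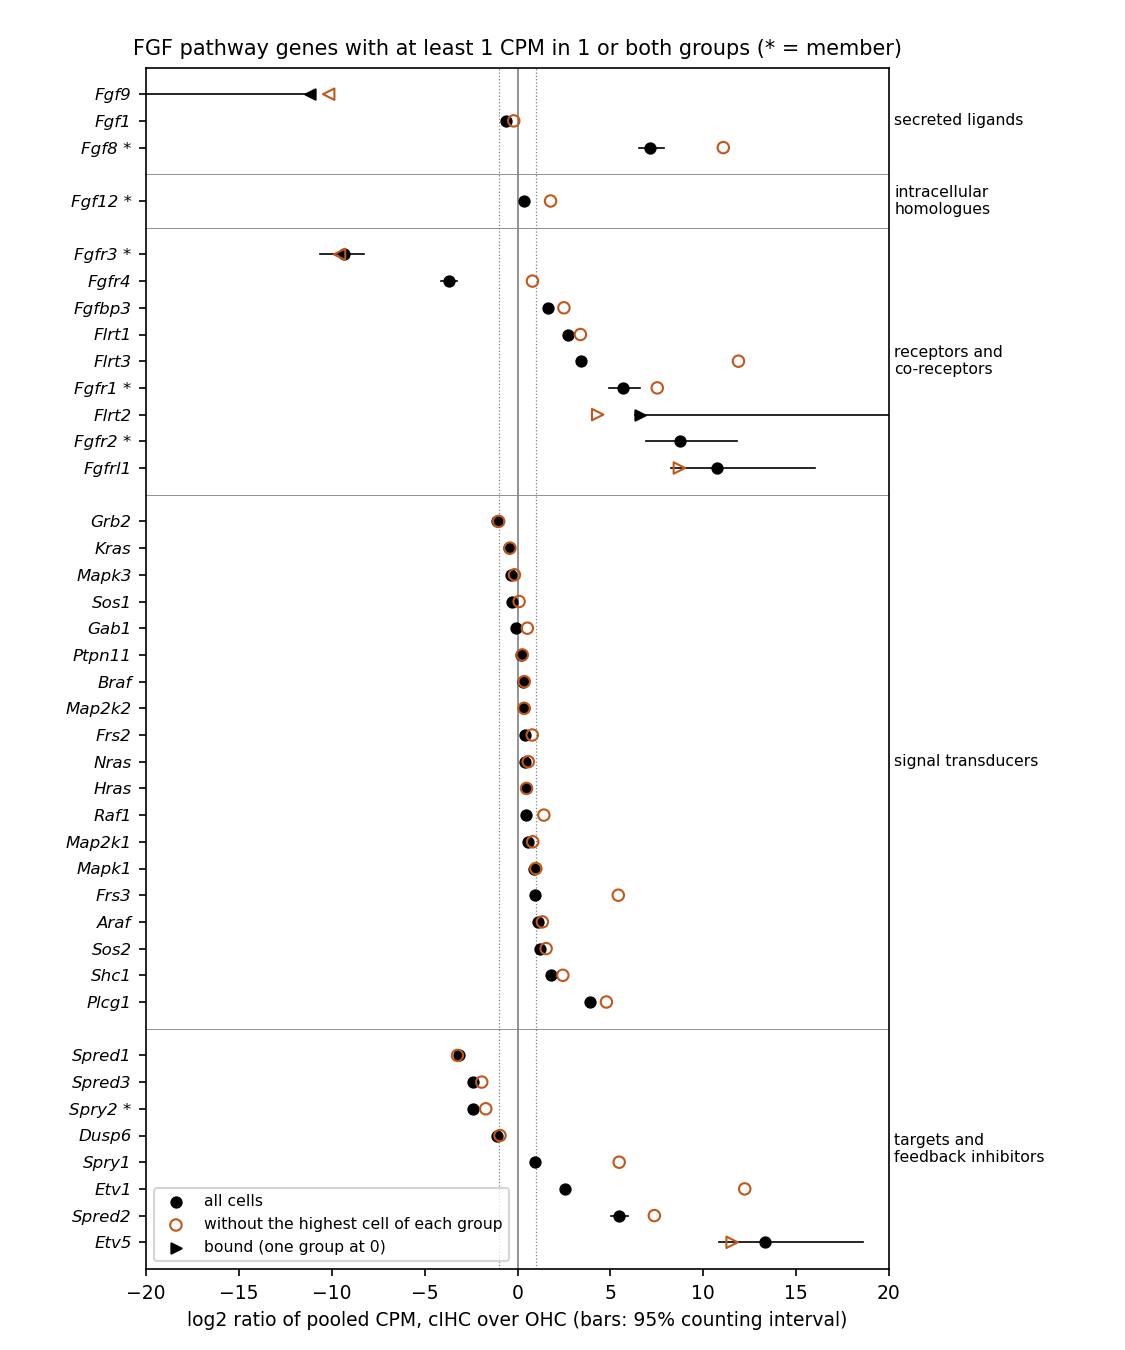
Log2 ratio of pooled CPM, cIHC over OHC, of the 40 compared pathway genes, by role; filled points are all cells with 95% counting intervals, open points leave out the highest cell of each group, triangles are bounds and dotted lines mark 2-fold. Most transducers lie between the dotted lines, while ligands, receptors and targets lie on both sides, with Fgf9 at a bound of at most -11.19 and Etv5 at 13.31, a ratio over 1 OHC count.

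Over the 67 cIHCs, the genes whose levels ran most like Fgf8 were Timm21 (Spearman rho 0.51), Rasal2 (0.50), Gm9797 (0.46), Rps19-ps7 (0.45) and Gkap1 (0.44), among 11153 genes with reads in at least 25% of cIHCs. The 95th percentile of rho over these genes was 0.23 and the lowest value -0.48. Timm21 had 29.03 pooled CPM in OHCs and 27.3 in cIHCs, and Rasal2, a RAS GTPase-activating protein, 81.2 and 347.9 CPM. Gm9797 and Rps19-ps7 lay at 0.298 and 0.107 CPM in cIHCs, under the level of Fgf8. These are ranks of sparse counts within 1 group and single them out only as the closest in these cells.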

How the data were processed

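Full-length RNA-seq of singly picked hair cells was deposited as 1 table of raw counts per gene symbol; per the submitters' processing notes the authors used HISAT2 2.2.1, StringTie 2.2.1, featureCounts 2.0.1 and build mm10, with no role or order given. The annotation, the strand setting and any filter are not given in the sources used here, so reads of genes that overlap on opposite strands cannot be told apart. All 99 columns matched a cell by its title, 0 columns matched none, and 0 pairs of columns were identical. Cells were picked singly, so no doublet or cell filter was applied.

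Counts were summed per group and divided by the total, in units of 1000000 (pooled counts per 1000000, CPM). Intervals are exact Poisson (levels), exact conditional binomial (ratios) and Clopper-Pearson (shares), at 95%. A sum of 0 was set to 3 counts over the group and its ratio given as a bound; for calls and medians over genes every sum under 3 was set to 3. No ratio was formed where both sums were 3 or fewer. Each group is 1 sample, so no test was run. The ratio calculation was checked on simulated counts. Alternatives changed the scaling, the cells kept, the depth, the minimum level and the fold. Tools were scipy 1.17.1, pandas 2.3.3, matplotlib 3.10.9 and numpy 2.4.6 in Python 3.11.15, and, for TMM factors only, edgeR 4.0.16 in R 4.3.3. Promoter sequences were RefSeq's for GRCm38.p6, and 96.4% of symbols matched GENCODE M21.

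Besides the 10 members, genes were named if they were on a list, reached 10 CPM in 1 or both groups and differed by 2-fold or more (up to 5 per list by size), or were among the 5 most like Fgf8. The members and lists were chosen with earlier results of these data known. A gene that the rule names is not reported here.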

Additional observations from a re-analysis of the deposited data

How the results depend on the processing

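With 1 sample per group, every value here lacks replicate error, and amplified reads make the counting intervals too narrow. Genes under about 10 pooled CPM were seen in few cells, so 1 cell can set their level. Without the highest cell of each group, 1 member was lower instead of 2, because Spry2 fell under 1 CPM, and 5 pathway genes were lower instead of 8; the Fgf8 log2 ratio was 11.09 instead of 7.16. It was 11.43 without cells with few genes (28 OHCs and 60 cIHCs left), 4.98 among cells with Y-linked reads and at least 9.26 after thinning. Medians of CPM per cell left 0 members higher, 0 lower and 2 pathway genes lower, and gave Fgf8 no value, since its medians were 0. Cells with Xist reads (4 OHCs) gave 1 member and 5 pathway genes lower. A minimum of 10 CPM gave 1 member higher, 0 lower and 5 pathway genes lower, and took the share of cIHCs with Fgf8 from 38.8% to 23.9%.

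Leaving out cells with markers of other cell types at 100 CPM or more kept 17 OHCs and 3 cIHCs. There 0 members were higher and Fgf8 had a ratio of 1.99. Fgf12 turned to -3.55, which rests on 127 OHC counts and only 2 counts in the 3 cIHCs. Most cIHCs left through the neuron genes Nefl and Nefm. With the neuron list aside, an alternative chosen after seeing the data, 24 OHCs and 42 cIHCs stayed and Fgf8 had a ratio of 5.91. Fgf12 had a ratio of 2.80 there, from 456 OHC and 5900 cIHC counts. Fgfr1 turned to -1.04 among cells with Y-linked reads, a bound from 0 cIHC counts. The cause of these shifts was not tested. TMM and median-of-ratios scaling moved the median ratio of all genes at 10 CPM or more by -0.19 and -0.20. No paired analysis was possible because a cell's number in its title is only a running number within its group, and no result comes from a test.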
